A study of Mus musculus with 16 samples.

Results

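The genes described here handle fatty acids in skeletal muscle: Lpl, Angptl4, Cd36 and Fabp3 in uptake, Acsl1 in activation, Plin2 and Plin5 in storage, Cpt1b in entry to the mitochondrion, and Ucp3 and Ucp2 in the inner mitochondrial membrane. These 10 genes were chosen by name, as the probes designed to their RefSeq transcripts, among 21777 genes tested. All 10 had at least 1 probe, 5 of them had 2, and every one of these probes was well above background on all 16 arrays. Total RNA of the gastrocnemius, the large and mostly fast-fibred muscle of the calf, was read on 1-colour arrays. The mice were untreated females of the inbred strain C57Bl/6J, with no transgene or agent named in the labels. The 4 groups were mice of 3, 15, 24 and 29 months, with 4 samples an age, numbered here as replicates 1 to 4, and 1 array a sample. The labels do not state whether each sample was a separate animal, so p-values measure only how these samples varied, and that variation may be technical.

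Muscle draws fatty acids from circulating triglyceride. Lipoprotein lipase, made by the fibres and carried to the capillary wall, splits the triglyceride, and ANGPTL4 inactivates the lipase. CD36 helps the freed fatty acids across the membrane, FABP3 carries them through the cytosol, and ACSL1 joins them to coenzyme A. The acyl-CoA is then either stored as triglyceride in droplets coated by perilipins, or passed into mitochondria by CPT1B for oxidation. UCP3 and UCP2 are carriers of the inner mitochondrial membrane, UCP3 mainly of skeletal muscle and UCP2 of many cell types, including those of the immune system. Several of these genes are known targets of the fatty acid-activated PPAR receptors and rise in muscle on fasting.

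Levels are given as log2 signal minus the 75th percentile of the array, so that 0 is the brightness at that percentile and a difference of 1 is a doubling. They compare the same gene between arrays and not one gene with another. A gene was called changed at an adjusted p under 0.05 in a limma fit over all genes. Slide 1 held the ages 3 and 15 months and slide 2 the ages 24 and 29 months, with each age filling 1 row. Age and slide therefore cannot be told apart in the comparisons of 29 with 3, 24 with 3 and 24 with 15 months. The comparisons of 15 against 3 and 29 against 24 months each lie within 1 slide. There the 2 ages fill different rows, so age and row cannot be told apart. Row 1 held 15 and 24 months, and row 2 held 3 and 29 months. Muscle fibre markers such as Ckm and Acta1 were well above background on all arrays (10 of 10), and limma called 0 of them between 29 and 3 months, with 0 at an unadjusted p under 0.05. Since whole muscle was read, fewer cells of a type and less RNA per cell cannot be told apart in any value below.

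At 29 months, compared with 3 months, 6 of the 10 genes were higher and 0 lower, namely Angptl4, Plin5, Ucp3, Ucp2, Fabp3 and Cd36. Over all genes, 14.6% were called, 6.99% higher and 7.66% lower. The rises ran from 13.6-fold for Angptl4 to 1.96-fold for Cd36. The other 4 genes, Plin2, Acsl1, Lpl and Cpt1b, had changes above 0 that did not pass. The median log2 change of the 10 was 0.99, against -0.04 over all genes. Levels at 29 months lay wholly above those of 3 months for Angptl4, Plin5, Ucp3, Ucp2 and Cd36, a pattern that 8.74% of all genes showed. Markers of other cell types moved in the same comparison. Of 8 fibroblast markers 4 fell and 0 rose (median log2 change -1.16), and of 10 endothelial markers 3 fell and 0 rose (median -0.42), while 0 of 8 macrophage markers were called and 2 had an unadjusted p under 0.05 (median 0.64). Of 9 adipocyte markers 1 rose and 0 fell (median -0.2), and 0 of 4 T and NK cell markers were called (median 0.27). The part of these cells in the rises of the 10 genes was not tested.

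**Figure D1:**
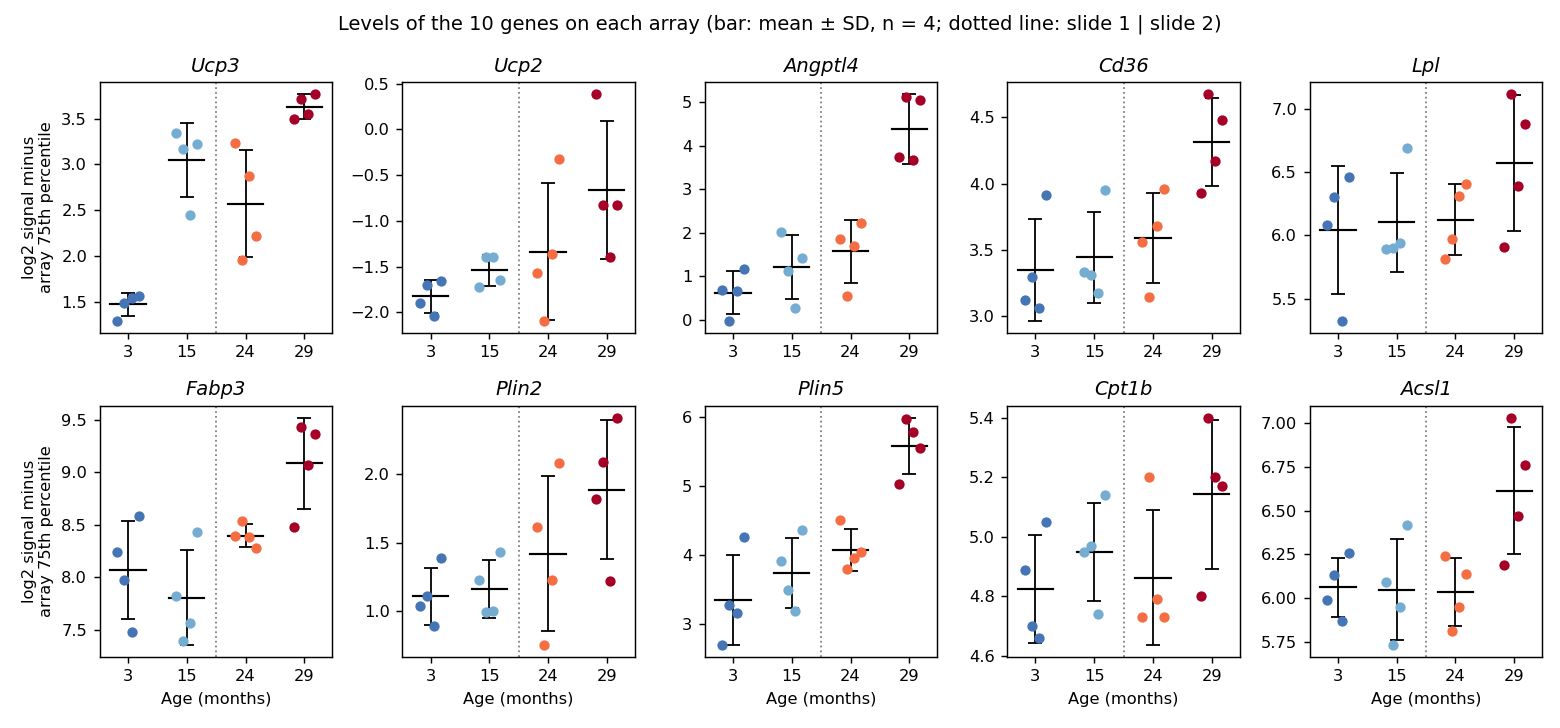
Log2 signal minus the 75th percentile of the array for the 10 genes, by age in months, with 1 point for each array and the mean ± SD of the 4 arrays of an age. Angptl4 and Plin5 are highest on all 4 arrays of 29 months, and Ucp3 is already high at 15 months on the same slide as 3 months.

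Lpl, the lipase that frees fatty acids at the capillary wall, passed in none of the 5 comparisons of ages. It read 6.08, 6.30, 5.32 and 6.46 at 3 months, 5.89, 5.90, 5.94 and 6.69 at 15 months, 5.81, 5.97, 6.31 and 6.41 at 24 months, and 5.91, 7.12, 6.39 and 6.88 at 29 months (replicates 1 to 4). These groups overlapped at every age. The means of 3 and 29 months were 6.04 ± 0.50 and 6.57 ± 0.53 (SD, n = 4), a log2 change of 0.54 (SE 0.29, 95% interval -0.08 to 1.15, adjusted p = 0.237). The interval allows anything from no change to a rise of about a doubling. The other probe of Lpl gave a log2 change of 0.51.

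Angptl4, which inactivates lipoprotein lipase, had the largest change of the 10 genes. It read 0.68, -0.03, 0.67 and 1.17 at 3 months, 2.03, 1.12, 0.27 and 1.42 at 15 months, 1.85, 0.55, 1.69 and 2.22 at 24 months, and 3.73, 5.12, 3.66 and 5.04 at 29 months. The first 3 ages overlapped one another, and all 4 arrays of 29 months lay above every array of the younger ages. Its mean was 0.62 ± 0.49 at 3 months, 1.58 ± 0.72 at 24 months and 4.39 ± 0.80 at 29 months (SD, n = 4). Between 3 and 29 months Angptl4 rose by a log2 of 3.76 (SE 0.45), or 13.6-fold (adjusted p = 0.000123). Within slide 2 it was 7.01-fold higher at 29 than at 24 months (log2 change 2.81, SE 0.45, adjusted p = 0.00699). That call was kept in all 16 fits that left out 1 array, with log2 changes of 2.47 to 3.05, and was lost where only the 8 arrays of these ages were fitted (adjusted p = 0.112).

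Cd36, the membrane protein of fatty acid uptake, read 3.12, 3.29, 3.06 and 3.91 at 3 months, 3.33, 3.31, 3.17 and 3.95 at 15 months, 3.56, 3.14, 3.68 and 3.96 at 24 months, and 3.93, 4.68, 4.17 and 4.48 at 29 months. The lowest array of 29 months lay just above the highest of 3 months, 3.93 against 3.91. Cd36 was 1.96-fold higher at 29 than at 3 months (log2 change 0.97, SE 0.23, adjusted p = 0.0126). Against 24 months, within slide 2, the log2 change was 0.73 and did not pass (adjusted p = 0.135).

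Fabp3, the cytosolic carrier of heart and oxidative muscle, read 8.24, 7.98, 7.48 and 8.58 at 3 months, 7.82, 7.40, 7.57 and 8.43 at 15 months, 8.39, 8.54, 8.38 and 8.28 at 24 months, and 8.48, 9.43, 9.07 and 9.36 at 29 months. At 29 months 3 arrays lay above all others, while replicate 1 lay below replicate 4 of 3 months. Fabp3 was 2.02-fold higher at 29 than at 3 months (log2 change 1.01, SE 0.26, adjusted p = 0.0169). Leaving out 3 months replicate 3 ended that call (log2 change 0.82, adjusted p = 0.0536), as did fitting only these 8 arrays (adjusted p = 0.055). Its second probe gave a log2 change of 1.06. At 15 months Fabp3 was 0.27 below 3 months on the log2 scale, in values that overlapped.

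Acsl1, the acyl-CoA synthetase of muscle and fat, had near-equal means at the first 3 ages. Its means were 6.06 ± 0.17 at 3 months, 6.05 ± 0.29 at 15 months, 6.04 ± 0.19 at 24 months and 6.61 ± 0.37 at 29 months (SD, n = 4). At 29 months the arrays read 6.19, 7.03, 6.47 and 6.76, of which replicate 1 fell within the range of the younger ages. The log2 change of 0.55 at 29 against 3 months (SE 0.18, 95% interval 0.16 to 0.93) just failed the test (adjusted p = 0.0566). The dimmer probe of Acsl1 had a log2 change of 0.61, which passed in a fit over single probes (adjusted p = 0.034). Without 29 months replicate 1, Acsl1 passed against 3 months (log2 change 0.69, adjusted p = 0.0189) and against 24 months (log2 change 0.72, adjusted p = 0.0468).

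Of the perilipins that coat droplets, Plin5 passed at 29 months and Plin2 did not. Plin5, which ties droplets to mitochondria in oxidative tissue, read 2.70, 3.28, 3.16 and 4.26 at 3 months, 3.92, 3.50, 3.19 and 4.36 at 15 months, 4.50, 3.80, 3.95 and 4.05 at 24 months, and 5.03, 5.97, 5.77 and 5.54 at 29 months. All 4 arrays of 29 months lay above the other 12, and 3 months replicate 4 stood above the others of its age. Plin5 was 4.67-fold higher at 29 than at 3 months (log2 change 2.22, SE 0.32, adjusted p = 0.000408). Within slide 2 it was 2.83-fold higher at 29 than at 24 months (log2 change 1.50, SE 0.32, adjusted p = 0.0266). Dropping replicate 2, 3 or 4 of either age ended that call, with adjusted p up to 0.081, and the log2 change stayed between 1.37 and 1.68 over the 16 fits that left out 1 array.

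Plin2, the perilipin found in most cells that store fat, read 1.04, 1.11, 0.89 and 1.39 at 3 months, 1.23, 0.99, 1.0 and 1.43 at 15 months, 1.61, 0.75, 1.23 and 2.08 at 24 months, and 1.82, 2.09, 1.22 and 2.41 at 29 months. The 3 higher arrays of 29 months lay above all those of 3 months, and replicate 3 lay among them. The log2 change of 0.78 (SE 0.27, 95% interval 0.21 to 1.35) did not pass (adjusted p = 0.0648). It passed without 29 months replicate 3 (adjusted p = 0.021), without 24 months replicate 2 (adjusted p = 0.0354) and without 24 months replicate 4 (adjusted p = 0.0391).

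Cpt1b, the muscle form of the carnitine acyltransferase that governs entry to the mitochondrion, had the smallest change of the 10 genes at 29 against 3 months. Its means were 4.82 ± 0.18, 4.95 ± 0.16, 4.86 ± 0.23 and 5.14 ± 0.25 at 3, 15, 24 and 29 months (SD, n = 4). At 24 months replicate 2 read 5.20 against 4.73 to 4.79 on the other arrays, and at 29 months replicate 1 read 4.80 against 5.17 to 5.40. The log2 change between 29 and 3 months was 0.32 (95% interval 0.00 to 0.63, adjusted p = 0.171), and the second probe gave 0.37. Any rise within that interval is at most 0.63 on the log2 scale, below the lower bounds of Angptl4 (2.81), Ucp3 (1.64) and Plin5 (1.55).

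Ucp3, the uncoupling protein of skeletal muscle, was the 1 gene of the 10 that passed at 15 against 3 months, a comparison within slide 1 in which 0.978% of all genes were called, 0.693% higher and 0.285% lower. It read 1.29, 1.49, 1.55 and 1.57 at 3 months, 3.34, 3.17, 2.45 and 3.22 at 15 months, 3.23, 1.96, 2.87 and 2.22 at 24 months, and 3.49, 3.71, 3.55 and 3.77 at 29 months. The 4 arrays of 3 months lay below all 12 of the older ages, and the 4 of 29 months above them all. Over all genes, 5.72% lay wholly higher at 15 than at 3 months and 5.71% at 24 than at 3 months. Ucp3 was 2.97-fold higher at 15 than at 3 months (log2 change 1.57, SE 0.24, adjusted p = 0.00597). From 3 to 29 months the rise was 4.46-fold (log2 change 2.16, SE 0.24, adjusted p = 7.05e-05).

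The values of Ucp3 at 15 and 24 months overlapped. At 24 months its mean of 2.57 ± 0.58 lay between 3.05 ± 0.40 at 15 months and 1.48 ± 0.13 at 3 months (SD, n = 4), and the log2 change of -0.47 from 15 to 24 months did not pass (95% interval -0.99 to 0.04, adjusted p = 0.402). Against 3 months it was 2.14-fold higher at 24 months (adjusted p = 0.0202), the 1 gene of the 10 called there. Of all genes 4.66% were called, 2.17% higher and 2.49% lower. Leaving out replicate 1 of 3 months (adjusted p = 0.0535) or of 24 months (adjusted p = 0.0516) ended that call. From 24 to 29 months, within slide 2, the log2 change of Ucp3 was 1.06 (SE 0.24), a 2.09-fold rise (adjusted p = 0.039). That call was kept in 4 of the 16 fits that left out 1 array, those without replicate 1 of 15, 24 or 29 months or without 15 months replicate 3. Over the 16 fits the adjusted p reached 0.102 and the log2 change ran from 0.86 to 1.28. Its second probe gave log2 changes of 1.25 at 15 against 3 months, 2.04 at 29 against 3 months and 1.15 at 29 against 24 months. At 24 against 3 months that probe gave 0.90, which did not pass in a limma fit over single probes (adjusted p = 0.0679). On that probe 24 months replicate 2 read 0.34, within the range of 3 months (0.25 to 0.6). With age fitted as a straight line and slide as a block, Ucp3 had a slope within slides of 0.143 log2 for each month (SE 0.0194, adjusted p = 0.00274). It was the 1 gene of the 10 called by that limma fit, which called 0.634% of all genes. The slide term takes up the difference between slides, the change from 15 to 24 months included. The slope therefore does not describe the course over the 4 ages, in which the log2 change from 3 to 29 months was 2.16.

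Ucp2 lies next to Ucp3 on chromosome 7, with 0 genes annotated between them by RefSeq on GRCm38.p6. It read -1.90, -1.70, -2.04 and -1.66 at 3 months, -1.72, -1.40, -1.40 and -1.65 at 15 months, -1.57, -2.10, -1.36 and -0.32 at 24 months, and 0.39, -0.83, -1.40 and -0.83 at 29 months. A single array stood high at each of the older ages, replicate 4 at 24 months and replicate 1 at 29 months. Ucp2 was 2.23-fold higher at 29 than at 3 months (log2 change 1.16, SE 0.35, adjusted p = 0.0408), a call kept in 4 of the 16 fits that left out 1 array, those without 24 months replicate 1, 2 or 4 or 29 months replicate 3. Without 29 months replicate 1 the log2 change was 0.80 (adjusted p = 0.0998). At 15 against 3 months, where Ucp3 passed, Ucp2 had a log2 change of 0.28 (95% interval -0.47 to 1.04).

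The high arrays of Ucp2 were also high in markers of some, but not all, cell types other than fibres. Each marker list was scored on an array by averaging how far its genes stood from their own 16-array means, in log2 units. For T and NK cell markers, of which 4 of 9 could be tested, 29 months replicate 1 scored 2.07 and the other 3 arrays of that age -0.12 to 0.01. On replicate 1 the score was 0.56 for macrophage markers, -0.23 for endothelial, -0.77 for fibroblast and -0.79 for adipocyte markers. Of the defining T cell genes Cd3e was well above background on all 16 arrays, Cd3d on 4 and Cd3g on 2. For adipocyte markers, 24 months replicate 4 scored 2.94 and the others of that age -0.01 to 0.33. On that array Plin2 (2.08) and Angptl4 (2.22) were also highest of the 4 samples of 24 months. The part of these cells in the levels of Ucp2, Plin2 and Angptl4 was not tested. At 29 months the adipocyte scores were -0.79, -0.66, -1.93 and 0.94, beside Angptl4 levels of 3.73, 5.12, 3.66 and 5.04 on the same arrays.

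The stretches of DNA before the start sites of Ucp3, its neighbour Ucp2 and Plin5 are shown because Ucp3 and Plin5 had the largest changes among the 7 genes whose promoter is in the RefSeq table used here, of build GRCm38.p6. They are the parts of the 250 bases before the start that lie outside every annotated transcript of the gene. Capitals mark AGGTCA on either strand (TGACCT on the other), the core motif of many nuclear receptors, the PPARs among them.
Ucp3, chr7:100472741-100472990, plus strand: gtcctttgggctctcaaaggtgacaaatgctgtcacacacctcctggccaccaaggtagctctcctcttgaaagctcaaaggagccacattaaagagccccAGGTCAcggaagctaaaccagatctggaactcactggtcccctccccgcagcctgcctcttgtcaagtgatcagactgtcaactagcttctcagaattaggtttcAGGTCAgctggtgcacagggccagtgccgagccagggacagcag
Ucp2, chr7:100493108-100493336, plus strand: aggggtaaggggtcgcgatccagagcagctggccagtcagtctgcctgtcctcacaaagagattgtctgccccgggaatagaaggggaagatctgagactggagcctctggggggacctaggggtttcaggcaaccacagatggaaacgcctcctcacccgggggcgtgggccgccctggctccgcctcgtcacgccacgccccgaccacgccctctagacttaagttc
Plin5, chr17:56117607-56117798, minus strand: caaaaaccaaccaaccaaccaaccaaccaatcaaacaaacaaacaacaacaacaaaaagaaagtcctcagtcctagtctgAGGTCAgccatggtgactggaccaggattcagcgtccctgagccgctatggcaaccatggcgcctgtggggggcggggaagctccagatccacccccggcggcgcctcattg
Ucp3 holds 2 such motifs, which begin 149 and 44 bases before its start, the stretch of Plin5 holds 1 and that of Ucp2 none. The 7 genes have 9 promoters in the table, Acsl1 and Plin5 having 2 each. Of these 9 promoters 4 held at least 1 core motif in 250 bases (those of Ucp3, Cd36 and Plin2 and the one shown of Plin5), as did 14.0% of 32851 promoters. The full pair with 1 base between, AGGTCANAGGTCA on either strand, which contains the core motif, was in 0 of the 9 and in 0.0335% of all promoters. These matches describe letters in a window and do not show that a factor binds there.

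**Figure D2:**
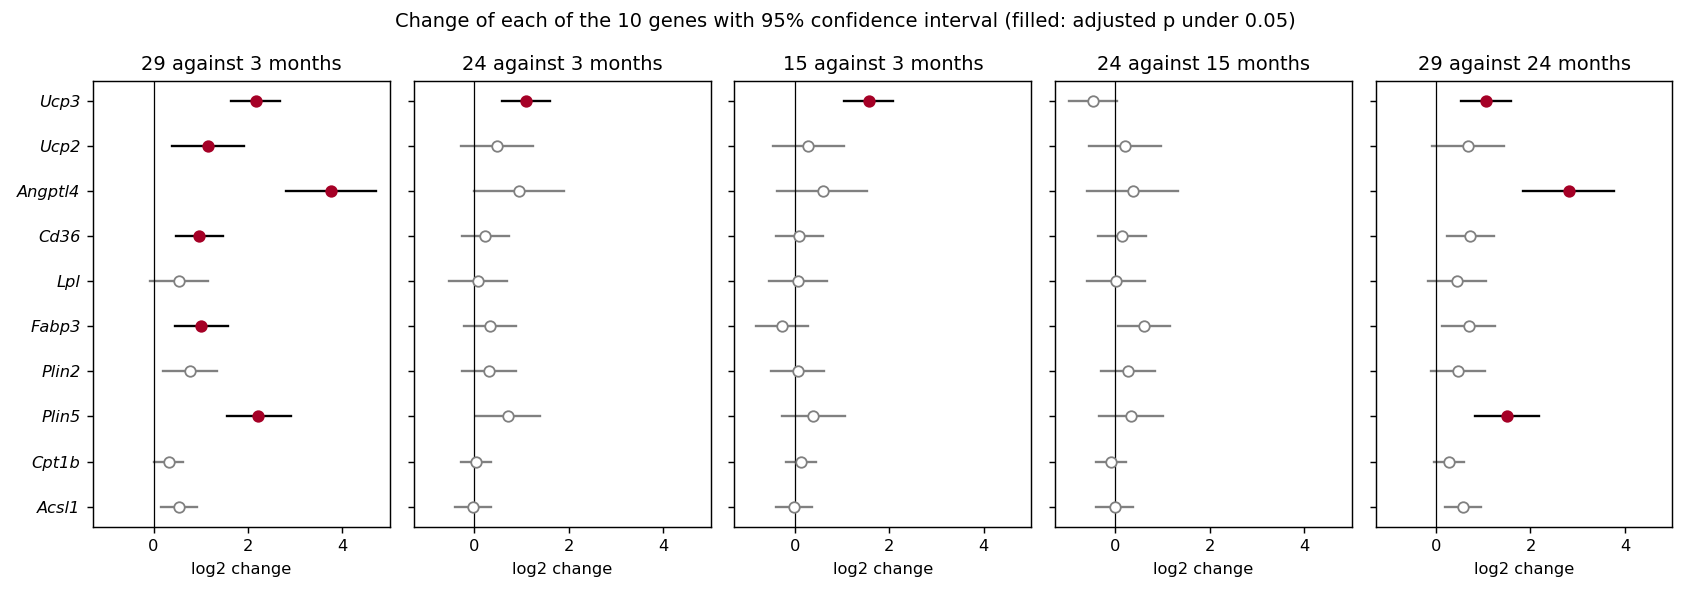
Log2 change of the 10 genes in each comparison of ages, with 95% confidence intervals as lines; filled points passed at adjusted p under 0.05 in the limma fit. Ucp3 is the filled point at 15 against 3 months, and Angptl4, Plin5 and Ucp3 are those at 29 against 24 months.

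Between the oldest ages, on the same slide, 3 of the 10 genes were higher at 29 than at 24 months and 0 lower, beside 1.91% of all genes called, 1.47% higher and 0.445% lower. Those 3, Angptl4, Plin5 and Ucp3, had no overlap between the ages, as had 4.71% of all genes upward. All 10 changes were above 0, with a median of 0.68 against -0.03 over all genes. Between the same ages 9 adipocyte markers had a median log2 change of -1.98, with 7 changes below 0 and 2 above. Of these markers 1 was called lower and 0 higher, and 6 had an unadjusted p under 0.05. The part of adipocytes in the changes of the 10 genes was not tested. From 15 to 24 months, which crossed the slides, limma called 0 of the 10, and 1, Fabp3, had an unadjusted p under 0.05 (log2 change 0.60, adjusted p = 0.341). In that comparison 0.0964% of all genes were called. At 15 against 3 months, 8 changes were above 0 and 2 below, with a median of 0.11. The comparisons share arrays, since 24 against 3 and 29 against 3 months both use the arrays of 3 months and 29 against 24 months shares an age with each, so their values are not independent.

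The change from 24 to 29 months was then tested against the change from 3 to 15 months, each within its slide. The older age filled row 2 on slide 2 and row 1 on slide 1. A difference between rows shared by the slides would therefore enter this test and not cancel. That limma test called 0 of the 10 genes and 0.67% of all genes. Of the 10, 4 had an unadjusted p under 0.05, namely Angptl4, Fabp3, Plin5 and Acsl1, all larger in the later step. Angptl4 was nearest, with a log2 difference of 2.22 (95% interval 0.871 to 3.58, adjusted p = 0.135), and Plin5 had 1.11 (adjusted p = 0.311). For Ucp3 the difference was -0.509 (95% interval -1.24 to 0.222). Neither the larger later rise of Angptl4 and Plin5 nor the larger early rise of Ucp3 passed that test.

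**Figure D3:**
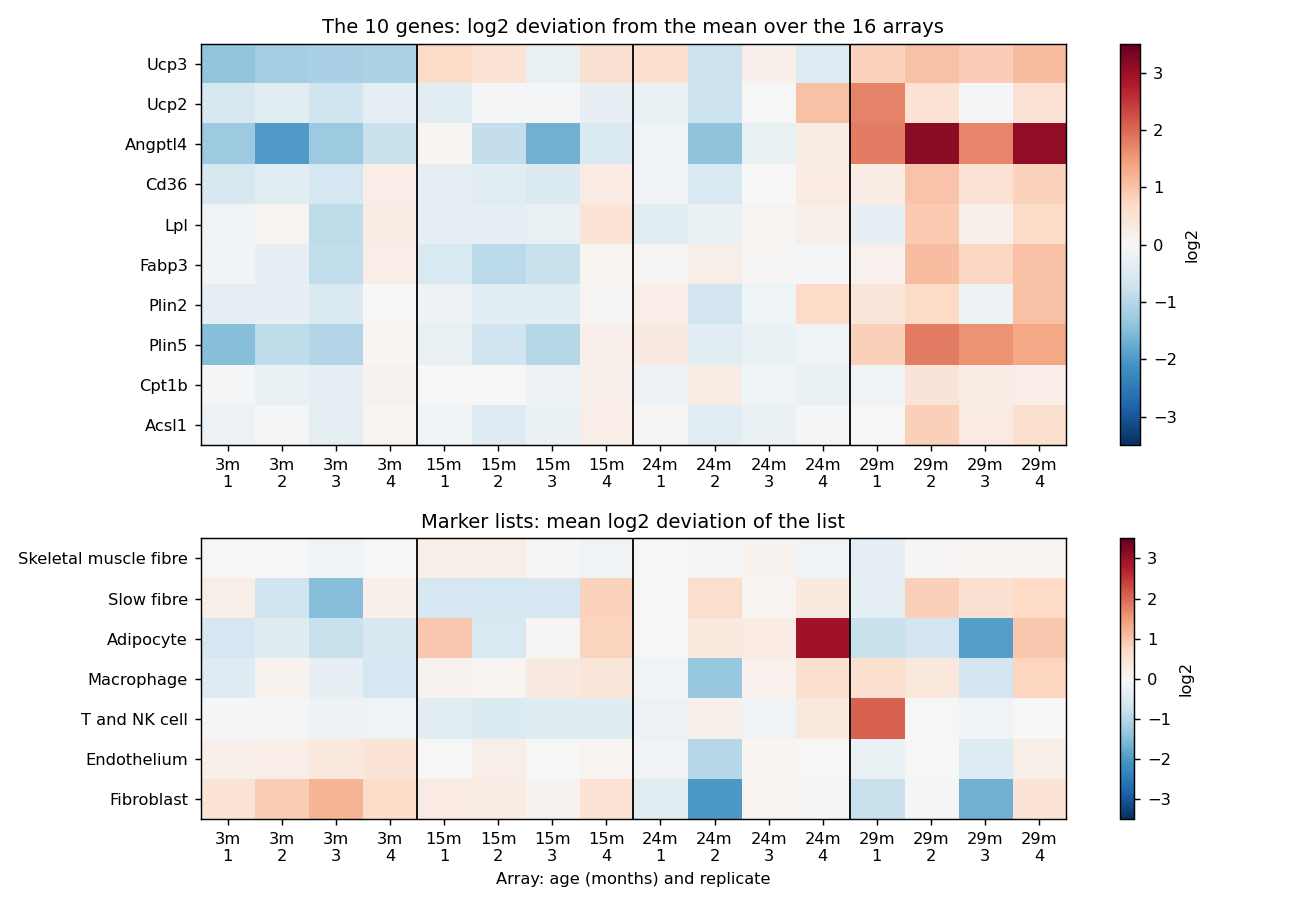
Each column is 1 array, by age in months (m) and replicate number; the upper panel gives the log2 deviation of the 10 genes from their mean over the 16 arrays and the lower panel the mean deviation of each marker list, on 1 colour scale. At 29 months replicate 1 is paler than the others for most of the 10 genes and darkest in T and NK cell markers, and 3 months replicate 3 is lowest in slow fibre markers.

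Within an age the 10 genes tended to stand high or low on the same arrays. The replicate number was also the column of the array on its slide. Sample and column therefore cannot be told apart within an age. At 3 months replicate 4 was highest of its age for all 10 genes and replicate 3 lowest for 7. At 15 months replicate 4 was highest for 7. At 24 months replicate 2 was lowest for 7, and at 29 months replicate 2 was highest for 7 and replicate 1 lowest for 7. Averaged over the 10 genes, deviations from the means over all arrays ran from -0.76 to -0.12 at 3 months and from 0.56 to 1.15 at 29 months, without overlap.

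Markers of slow fibres, which are oxidative and burn fat, moved with several of these arrays. Their score was -1.48 on 3 months replicate 3 and 0.17 on replicate 4, 0.82 on 15 months replicate 4 against -0.61 to -0.59 on the others of that age, and -0.34 on 29 months replicate 1 against 0.54 to 0.84. Other arrays did not follow. The highest score of 3 months, 0.20, was on replicate 1, which was highest of its age for 0 of the 10 genes. At 24 months the array lowest for 7 of the 10 genes, replicate 2, had instead the highest slow fibre score (0.61), with fibroblast markers at -2.01, macrophage markers at -1.32 and endothelial markers at -1.01. Of the 8 slow fibre genes 0 were called at 29 against 3 months and 6 had an unadjusted p under 0.05, with a median log2 change of 1.04 and scores of -1.48 to 0.20 and -0.34 to 0.84. Their median at 29 against 24 months, where Angptl4, Plin5 and Ucp3 passed, was 0.13. The part of fibre type in the 10 genes was not tested.

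Other genes of uptake did not move as one at 29 against 3 months. Of 12 tested, Slc27a1, a fatty acid transport protein, was 1.46-fold higher (log2 change 0.55, adjusted p = 0.0187), while Angptl2, a secreted relative of Angptl4, was 2.54-fold lower (adjusted p = 0.0236). The median log2 change of this list was -0.11. At 29 against 24 months limma called 0 of the 12, and 4 had an unadjusted p under 0.05.

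Among 21 genes of fatty acid activation and storage 4 rose and 2 fell at 29 against 3 months, with a median log2 change of 0.15. Over all genes 6.99% were called higher and 7.66% lower. Gpat3, which starts the building of triglyceride from glycerol phosphate, was 3.55-fold higher (adjusted p = 1.09e-05), and its log2 change from 24 to 29 months was 1.07 (adjusted p = 0.00577). Plin4, a perilipin of fat and muscle, was 2.48-fold higher (adjusted p = 0.000237) and, like Ucp3, had passed at 15 against 3 months (log2 change 0.90, SE 0.17, adjusted p = 0.0215). Acsl6, an acyl-CoA synthetase, was 1.72-fold higher (adjusted p = 0.00577). Scd1, the desaturase that makes monounsaturated fatty acids, was 9.62-fold lower at 29 than at 24 months (log2 change -3.27, SE 0.67, adjusted p = 0.0237), between ages whose adipocyte scores ran from -1.93 to 0.94 and from -0.01 to 2.94. The part of adipocytes in that fall was not tested.

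Droplet lipolysis and the carnitine shuttle had members that rose beside Plin5. Pnpla2, the lipase that starts the breakdown of stored triglyceride, was 1.94-fold higher at 29 than at 3 months (log2 change 0.95, adjusted p = 0.00261). It was also 1.85-fold higher than at 24 months (log2 change 0.89, adjusted p = 0.0215). Against 3 months it was the 1 of 7 lipolysis genes called, near the share of all genes called there (14.6%). The median log2 change of the 7 was 0.39 against 3 months and 0.04 against 24 months. Lipe, the hormone-sensitive lipase, had a log2 change of 0.80 against 3 months that did not pass (adjusted p = 0.0567). G0s2, an inhibitor of the lipase that Pnpla2 encodes, was 3.63-fold lower at 29 than at 24 months (log2 change -1.86, adjusted p = 0.0361), and the ages overlapped. Adipocyte scores ran from -1.93 to 0.94 at 29 months and from -0.01 to 2.94 at 24 months. The part of adipocytes in the fall of G0s2 was not tested. Mlycd, which removes the malonyl-CoA that blocks CPT1, was 2.28-fold higher than at 3 months (log2 change 1.19, adjusted p = 0.000217) and 2.13-fold higher than at 24 months (log2 change 1.09, adjusted p = 0.00542). Acacb, which makes that malonyl-CoA, was higher than at 3 months (log2 change 0.59, adjusted p = 0.0166), and Slc25a20, the acylcarnitine carrier, 1.79-fold (adjusted p = 0.0246). These were 3 of 8 genes of the shuttle called higher against 3 months, beside 6.99% of all genes, with a median log2 change of 0.42.

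Uncoupling relatives of Ucp3 and Ucp2 and the adenine nucleotide carriers had a median log2 change of -0.01, with 1 of 5 called. That gene, Slc25a14, was 1.27-fold lower at 29 than at 3 months (adjusted p = 0.0277). Of all genes 14.6% were called there. Ucp1, the uncoupling protein of brown fat, was too dim at every age to enter the test. Known PPAR targets outside the 10 genes were higher in 8 of 16 and lower in 0 at 29 against 3 months (median log2 change 0.53). Over all genes 6.99% were called higher and 7.66% lower there. This list was chosen with earlier results of these data known, so its counts describe the list and test nothing. Acot2, a mitochondrial acyl-CoA thioesterase, was 9.85-fold higher (adjusted p = 9.8e-07), and within slide 2 it was 7.29-fold higher than at 24 months (adjusted p = 7.06e-06). Acot1, its cytosolic relative, was 20.8-fold higher than at 3 months (adjusted p = 3.73e-06), though near-identical copies of this gene family can share signal on a probe. Pdk4, which turns muscle from glucose to fat, was 10.8-fold higher (adjusted p = 6.97e-06) and, like Ucp3, had passed at 15 against 3 months (2.80-fold, adjusted p = 0.0167). At 29 against 24 months 4 of the 16 passed, Acot2, Acot1, Pdk4 and Ehhadh, all upward, with a median of 0.41. Over all genes 1.47% were called higher between these ages. The step difference passed for Acot2 (log2 difference 2.12, adjusted p = 0.00405), Acot1 (2.76, adjusted p = 0.0148) and Ehhadh (1.12, adjusted p = 0.0367), which none of the 10 genes did.

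**Figure D4:**
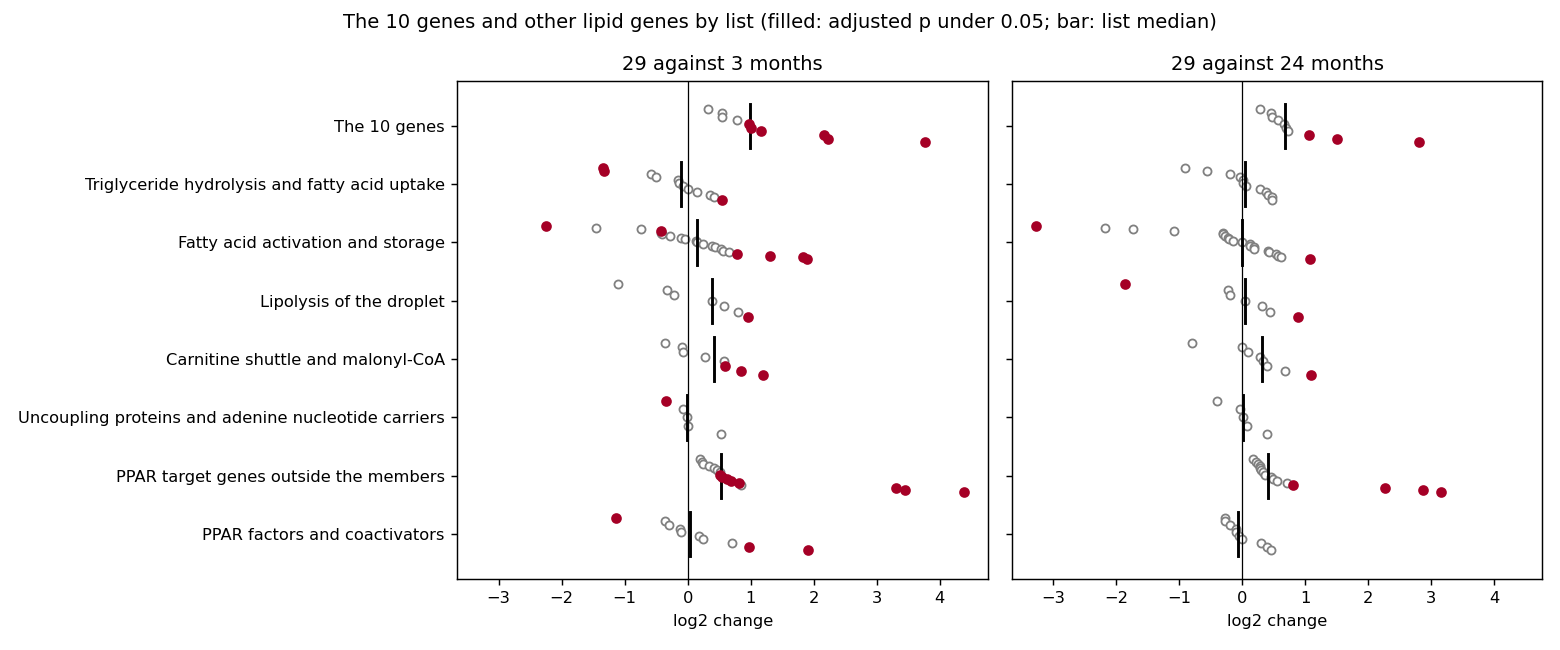
Log2 change of each gene at 29 against 3 months and at 29 against 24 months, for the 10 genes and 7 lists of other lipid genes; filled points passed at adjusted p under 0.05 and bars are list medians. The bar of the 10 genes stands at 0.99 and 0.68, and that of other PPAR targets at 0.53 and 0.41.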

How the data were processed

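Total RNA labelled with Cy3 was read on 1-colour Agilent arrays. Per the file headers, Feature Extraction 10.7.1.1 gave background-subtracted, spatially detrended spot intensity, with no normalization between arrays. The authors' deposited log2 values, whose scale and centring are not given in the sources used here, matched the scanner values by feature number (r of 0.985 to 0.993 across probes) and not by probe name, and served as an alternative. From the intensities, outlier spots were left out, spots of a probe averaged, log2 taken and the 75th percentile of each array subtracted. The filter kept 28435 of 55588 probes, those that the scanner marked well above background throughout 1 or more ages, and the brightest kept probe stood for a gene. RefSeq names came from the table of GRCm38.p6, while the headers name build mm9, so no gene coordinates of the arrays are given. All 16 arrays entered 1 model of the age means in limma 3.58.1 (R 4.3.3). Its tests were two-sided and p-values were adjusted over the 21777 genes by Benjamini and Hochberg's method. The script was tested on simulated data. On the arrays 48.0% to 60.9% of spots were well above background and none was saturated. The number of arrays limits the precision. The 10 genes, the lists and the alternatives were chosen with earlier results of these data known. Named genes were taken from all 10, the 3 of smallest p in each list at 29 against 3 and 29 against 24 months, and every called gene where a list had 5 or fewer; 1 gene of these is not reported here. The alternatives were 12 other settings and 16 fits that each left out 1 array. Slide as a random block could not be fitted, because the age means already hold the slides. Mean spot signals were not used, so normexp took median signals. The model did not pair samples by replicate number, which was also the column of the array on its slide.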

Additional observations from a re-analysis of the deposited data

Results flagged for a closer look

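In 2 of 40 groups of 4 arrays, a sample stood far from the others of its age, and chance alone flags about 1 group in 20. Lpl on 15 months replicate 4 was at 6.69 with the nearest array at 5.94, a gap of 0.934 of the range of that age. Cpt1b on 24 months replicate 2 was at 5.20 with the nearest at 4.79, a gap of 0.867 of the range.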

How the results depend on the processing

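Counts of the 10 genes called at 29 against 3 months stayed within 4 to 9 higher over all 28 alternatives, with 0 lower, and ran from 4 to 7 over the fits that left out 1 array. At 24 against 3 months the 1 call, Ucp3, became 0 with arrays scaled to their median (adjusted p = 0.0839) and where only the ages compared were fitted (adjusted p = 0.0677), and the range over left-out arrays was 0 to 1, lost without 3 months replicate 1 (adjusted p = 0.0535) or 24 months replicate 1 (adjusted p = 0.0516). At 29 against 24 months the 3 calls became 1 without the filter on dim probes, with array weights and without the 4 arrays of lowest weight, and 0 where only the ages compared were fitted, with 1 to 4 over left-out arrays (1 without replicate 2, 3 or 4 of either age). At 15 against 3 months, in the age line and in the other counts of 0, left-out arrays changed nothing (1 to 1, 1 to 1 and 0 to 0). A replicate block gave 6 calls between 29 and 3 months and 2 between 29 and 24 months, where Ucp3 was lost (adjusted p = 0.0772). It ended the call of Ucp2 (adjusted p = 0.0599) and added Plin2 (adjusted p = 0.0224) between 29 and 3 months. Same-numbered samples, which lay in the same column of a slide, correlated at -0.471 to 0.303 in their deviations. These values gave no sign of a pairing shared by all ages. Scaling to the median moved the median of all genes to -0.15 at 24 against 3 and at 24 against 15 months. None of the 12 called changes of the 10 genes turned sign under any alternative. Of the 58 changes not called, 13 took the opposite sign in 57 fits in all, with an adjusted p of 0.779 or more and a log2 size of at most 0.17 between ages. They lie among the 15 against 3, 24 against 3 and 24 against 15 month comparisons of Acsl1, Cd36, Cpt1b, Lpl, Plin2, Ucp2 and Ucp3 and in the age line of Fabp3. Plin2 is outside the part of the deposited table that could be joined, and the planned fit on only the ages compared gives no value for the line or the step difference.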

Other observations

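A list of 10 genes held PPARs, other transcription factors (Foxo1 among them) and coactivators. Of these, 2 rose (Foxo1 and Ppargc1a) and 1 fell (Ppargc1b) at 29 against 3 months, beside 6.99% of all genes called higher and 7.66% lower. Foxo1, a transcription factor of fasting and atrophy, had a log2 change of 1.91 (3.76-fold, adjusted p = 0.00044). Like Ucp3 it had passed at 15 against 3 months (log2 change 1.47, adjusted p = 0.0183). It also passed in the age line, with a slope within slides of 0.118 for each month (adjusted p = 0.0153). That slope leaves out the difference between slides. Ppargc1b, a coactivator of mitochondrial genes, was 2.20-fold lower (adjusted p = 0.00968), whereas its relative Ppargc1a was 1.97-fold higher (adjusted p = 0.0109). At 29 against 24 months limma called 0 of the 10, and 1 had an unadjusted p under 0.05.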
